A study of Mus musculus with 24 samples.

Results

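Secreted signals made by fibroblasts were followed through 10 genes, 5 chemokines (Cxcl1, Cxcl5, Ccl2, Ccl7 and Cxcl12), 3 cytokines of the IL-6 family (Il6, Lif and Il11), their feedback inhibitor Socs3 and the macrophage growth factor Csf1. They were found by gene symbol in the annotation of the array and not by their values, and are 10 of the 9908 genes tested, on 11 of 41345 probe sets. The cells were early passage mouse embryonic fibroblasts (MEF), a mixed culture of connective tissue cells grown from embryos, of a strain that the labels do not give. In the synchronised groups the cells were held in low serum for 48 h and then refed with 10% serum, with RNA taken at 0 h (starved, before refeeding), at 0.5, 1 and 2 h, and every 2 h from there to 30 h. The sample protocol gives the low serum as 0.5% and the design text as 0.1%. Unsynchronised MEF, grown in 10% serum without starvation, had 2 arrays, as had 0, 12, 18 and 24 h, while the other 14 times had 1 array each, 24 arrays in all. All values below are RMA intensities of 1 probe set per gene, the brightest, and can be compared between arrays but not between genes. Whether the duplicates, biological replicates by their labels, came from different cultures is not stated, and a p-value here reflects only how far such arrays differ, possibly for technical reasons.

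Chemokines are small secreted proteins that direct the movement of leukocytes through receptors with several membrane passes. Those with the CXC arrangement of cysteines such as Cxcl1 and Cxcl5 draw mainly neutrophils, and those with the CC arrangement such as Ccl2 and Ccl7 draw mainly monocytes. Il6, Lif and Il11 each bind a receptor of their own and share the signalling chain Il6st, which activates JAK kinases and the transcription factor STAT3. STAT3 in turn induces Socs3, which binds the same receptor chain and the kinases and ends the signal. Fibroblasts are a known source of all these factors when serum, injury or inflammatory signals reach them, and NF-kB and AP-1 are well known regulators of several of these genes.

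The sequence before the start of 4 genes is shown because it holds letters of motifs bound by these factors. The sequences are from RefSeq (GRCm38.p6), are the 250 bases just before an annotated start, 5′ to 3′ on the strand of the gene, and have matches in capitals: GGGNN followed directly by TTTCC, on either strand as for all motifs, for NF-kB in Cxcl1 and Il6, TGANTCA for AP-1 in Il6 and Il11, and TTCNNNGAA for STAT in Socs3.
Cxcl1, chr5:90890995-90891244, plus strand: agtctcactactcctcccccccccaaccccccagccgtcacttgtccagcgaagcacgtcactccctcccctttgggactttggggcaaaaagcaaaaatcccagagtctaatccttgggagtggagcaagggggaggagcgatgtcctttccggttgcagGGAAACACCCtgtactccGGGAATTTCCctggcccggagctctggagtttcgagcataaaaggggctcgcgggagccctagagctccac
Il6, chr5:30012864-30013113, plus strand: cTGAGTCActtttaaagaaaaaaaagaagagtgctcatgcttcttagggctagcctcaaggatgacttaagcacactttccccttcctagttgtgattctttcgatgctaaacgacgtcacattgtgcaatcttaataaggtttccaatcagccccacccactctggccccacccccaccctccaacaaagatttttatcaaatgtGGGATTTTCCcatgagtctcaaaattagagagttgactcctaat
Il11, chr7:4778142-4778391, minus strand: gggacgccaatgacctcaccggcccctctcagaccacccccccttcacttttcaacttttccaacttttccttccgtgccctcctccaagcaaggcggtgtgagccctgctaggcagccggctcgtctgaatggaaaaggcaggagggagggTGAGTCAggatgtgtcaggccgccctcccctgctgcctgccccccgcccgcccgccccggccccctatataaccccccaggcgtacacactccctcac
Socs3, chr11:117969367-117969616, minus strand: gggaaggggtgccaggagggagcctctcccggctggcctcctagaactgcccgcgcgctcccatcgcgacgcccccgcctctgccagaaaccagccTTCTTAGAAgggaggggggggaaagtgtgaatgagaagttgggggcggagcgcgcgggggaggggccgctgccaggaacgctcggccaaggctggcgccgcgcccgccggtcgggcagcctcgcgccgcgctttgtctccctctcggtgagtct

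Among the 10 genes, 7 had an entry in the promoter table, with 8 starts in all, and Ccl2, Ccl7 and Cxcl5 are named only. The NF-kB letters stood in 3 of these 7 genes and in 1.41% of all 32851 starts of that length. Cxcl1 had a pair of matches, 89 to 80 bases before the start on the minus strand and 71 to 62 bases before it on the plus strand. Il6 had a match 44 to 35 bases before the start, and Csf1 had one 154 to 145 bases before it on the minus strand. The AP-1 letters stood in 3 of the 7 genes and in 6.75% of all starts. They began 249 bases before the start of Il6, 98 bases before 1 of the 2 starts of Il11 and 228 bases before that of Lif. The STAT letters were found only in Socs3 among the 7, from 154 to 146 bases before the start, and in 7.02% of all starts, and the CArG box bound by serum response factor (1.47% of starts) was found in none of the 7. The motifs do not overlap each other at these places, and a match describes the letters and is no evidence of binding.

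Duplicate arrays correlated at r = 0.985 to 0.991, and the spread between duplicates, as the root mean square SD of the log2 values, was widest at 0 h (0.286, against 0.156 to 0.199 in the other groups). The array at 26 h stood apart, with 335 genes more than 1 log2 unit from the mean of the neighbouring times, as did that at 4 h with 263 and at 2 h with 142, against 8 to 60 at the others. All 10 fibroblast markers passed the minimum of 20 in 2 arrays, with summed intensities of 21279 and 22539.7 at 0 h and 18756 and 18678 at 24 h, against 14855 and 15078 in unsynchronised cells. In starved cells 8 of these 10 were higher and 1 lower than in unsynchronised cells (21.0% and 21.7% of all genes), and at 24 h 2 were higher and 4 lower than at 0 h (14.5% and 12.0%). Of 13 macrophage and leukocyte markers 9 passed it, with sums of 1737 and 1345 at 0 h and 974 and 1167 at 24 h, against 933 and 827 in unsynchronised cells, while Aif1 and Laptm5 never reached 20. Of those 9, 6 were higher and none lower in starved than in unsynchronised cells, and at 24 h 1 was higher and 5 lower than at 0 h, beside the same shares of all genes. The part of either marker list in the values below was not tested, and in such bulk RNA a change in the number of cells of a type and in the RNA per cell cannot be told apart. Of 6 endothelial markers only Kdr and Tek passed the minimum, and no marker of epithelium (of 6), mast cells or T cells (of 3) did.

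Serum refeeding was followed by higher levels of 9 of the 10 genes, and their peaks came at different times. By the F test over the 17 times after 0 h, 9 of the 10 changed (43.8% of all genes did), the exception being Cxcl12 (adjusted p = 0.54). At single times the number of later times that were higher than 0 h was 17 of 17 for Cxcl1, 16 for Il6, 15 for Ccl2 and Socs3, 14 for Cxcl5, 12 for Ccl7, Il11 and Csf1, 8 for Lif and 0 for Cxcl12. Counted by time, with the share of all genes called higher in parentheses, the number of the 10 that were higher was 1 (0.273%) at 0.5 h, 3 (1.54%) at 1 h, 8 (6.28%) at 2 h, 9 (12.0%) at 4 h, 9 (12.2%) at 6 h and 8 (16.1%) at 8 h. Later it was 7 (12.6%) at 10 h, 8 (18.9%) at 12 h, 8 (11.2%) at 14 h, 8 (10.9%) at 16 h and 8 (15.7%) at 18 h, and then 9 (12.7%) at 20 h, 8 (11.9%) at 22 h, 9 (14.5%) at 24 h, 6 (8.85%) at 26 h, 6 (8.24%) at 28 h and 6 (9.97%) at 30 h. Cxcl1 was highest at 1 h, Lif at 2 h, Ccl2, Ccl7 and Csf1 at 4 h, Il6 at 8 h and Il11 at 10 h, whereas Socs3 and Cxcl12 had their highest array at 26 h and Cxcl5 at 28 h. Without the 26 h or the 2 h array the F test called 9 genes, and without the 4 h array 8, all but Ccl7 and Cxcl12, checks added after the data were seen. A difference is given on the log2 scale with its SE, and a second number in the same parentheses is its adjusted p. A time with 1 array was assumed to vary as the duplicated groups did.

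**Figure D1:**
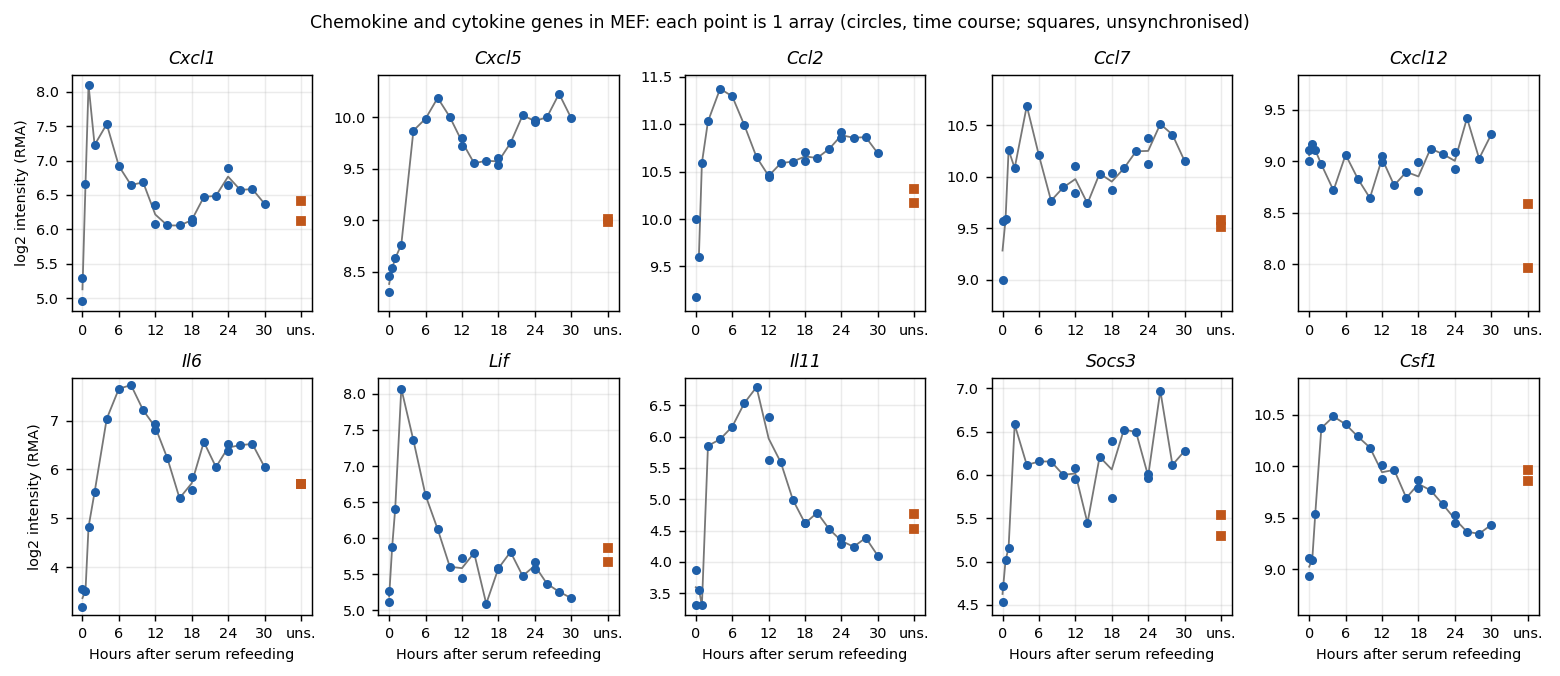
Log2 RMA intensity of each gene (vertical axis) against hours after serum refeeding, with 1 circle for each array of the time course, a line through the group means and squares for the 2 unsynchronised arrays (uns.). Cxcl1 and Lif spike at 1 and 2 h, Il6 and Il11 form a broad hill with tops at 8 and 10 h, and Cxcl12 stays between 399 and 684 (8.64 and 9.42 on the log2 axis) through the course.

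Cxcl1, a neutrophil attractant known as an early gene of serum-treated mouse fibroblasts, gave the fastest and sharpest spike. Its probe set (17438987) read 39.3 and 31.1 at 0 h, 101 at 0.5 h, 275 at 1 h, 149.8 at 2 h and 185 at 4 h. Later arrays read 121 at 6 h, 100.04 at 8 h, 103 at 10 h, 81.6 and 67.7 at 12 h, 66.6 at 14 h, 66.5 at 16 h and 69.2 and 71.2 at 18 h. From 20 h on it read 88.7 at 20 h, 89.8 at 22 h, 99.9 and 119 at 24 h, 95.2 at 26 h, 96.0 at 28 h and 82.9 at 30 h, and unsynchronised cells read 69.3 and 85.1. Every array after refeeding lay above both 0 h arrays, the 1 h array was the highest of the 24, and no other time lay within 2 duplicate SDs of it. The 1 h level was 7.86-fold that of 0 h (log2 difference 2.97 ± 0.21, SE, adjusted p = 1.60e-05), and the gene was already 2.88-fold higher at 0.5 h (adjusted p = 0.010). After the spike the level went down to 66.5 at 16 h and was 109 ± 13.2 at 24 h, against 35.2 ± 5.84 at 0 h (mean ± SD, n = 2 each), a log2 difference of 1.64 ± 0.17 (adjusted p = 9.43e-05).

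Cxcl5, a second neutrophil attractant whose gene lies on the same chromosome as Cxcl1 with 4 protein-coding genes between them (GRCm38.p6), came later and stayed. Its probe set (17438955) read 352 and 316 at 0 h, 371 at 0.5 h, 396 at 1 h, 434 at 2 h and 936 at 4 h. It then read 1014 at 6 h, 1167 at 8 h, 1026 at 10 h, 846 and 893 at 12 h, 751 at 14 h, 764 at 16 h and 781 and 741 at 18 h. At the end it read 861 at 20 h, 1038 at 22 h, 1004 and 992 at 24 h, 1024 at 26 h, 1199 at 28 h and 1018 at 30 h, against 505 and 516 in unsynchronised cells. The intensity went from 434 at 2 h to 936 at 4 h, a step that was not itself tested. Both are single arrays that stood apart over all genes. Against 0 h the 2 h array was not called higher (adjusted p = 0.14) and the 4 h array was (log2 difference 1.49 ± 0.15, adjusted p = 7.24e-05). From 4 h on all arrays lay above those of 0 h and of unsynchronised cells, with one top at 8 h (3.50-fold over 0 h), a shallow dip to 18 h and a second top at 28 h (3.60-fold), which lay within 2 duplicate SDs of each other.

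Ccl2, the main attractant of monocytes made by fibroblasts, was bright in every array and formed a broad peak. Its probe set (17254041) read 1024 and 578 at 0 h, 775 at 0.5 h, 1543 at 1 h, 2091 at 2 h, 2655 at 4 h and 2513 at 6 h. It then read 2032 at 8 h, 1611 at 10 h, 1411 and 1396 at 12 h, 1540.3 at 14 h, 1559.5 at 16 h and 1570.0 and 1668 at 18 h. The last arrays read 1600.4 at 20 h, 1712 at 22 h, 1847 and 1935 at 24 h, 1855 at 26 h, 1864 at 28 h and 1655 at 30 h, against 1152 and 1273 in unsynchronised cells. All arrays from 1 h on were above both 0 h arrays, but the 0.5 h array lay between these 2, which themselves differed widely. At 4 h Ccl2 was 3.45-fold higher than at 0 h (log2 difference 1.79 ± 0.27, adjusted p = 6.81e-04), and the first time called was 2 h (adjusted p = 0.0051). The level at 24 h was 1891 ± 62.3, against 801 ± 315 at 0 h (mean ± SD, n = 2 each), and 2, 6, 8, 24, 26 and 28 h lay within 2 duplicate SDs of the 4 h peak, which is that of a single array that stood apart over all genes.

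Ccl7, a related monocyte attractant whose gene is the next protein-coding gene to Ccl2 on chromosome 11 (GRCm38.p6), had a smaller and less even course. Its probe set (17254047) read 759 and 511 at 0 h, 768 at 0.5 h, 1226 at 1 h, 1085 at 2 h, 1649 at 4 h and 1181 at 6 h. Next it read 871 at 8 h, 952 at 10 h, 1103 and 919.9 at 12 h, 855 at 14 h, 1046 at 16 h and 937 and 1047 at 18 h. Toward the end it read 1082 at 20 h, 1215 at 22 h, 1114 and 1331 at 24 h, 1459.6 at 26 h, 1359 at 28 h and 1138 at 30 h, against 731 and 765 in unsynchronised cells. Every array after 0 h lay above both 0 h arrays, the first at 0.5 h only just. The 4 h array, which stood apart over all genes, was the highest, and 1, 22, 24, 26 and 28 h lay within 2 duplicate SDs of it. The 4 h level was 2.65-fold that of 0 h (log2 difference 1.40 ± 0.24, adjusted p = 0.0013), and at 8, 10 and 14 h no difference from 0 h was called (adjusted p = 0.15, 0.082 and 0.18). The F test of Ccl7 (adjusted p = 0.033) missed the threshold without the 4 h array (0.052) and with either of the duplicates left out in the unsynchronised, 12 h and 18 h groups (adjusted p = 0.053 to 0.062).

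Cxcl12, the ligand of Cxcr4 that stromal cells make to hold blood-forming and other cells in place, showed no called change after refeeding and differed only from the unsynchronised cells. Its probe set (17462149) read 513 and 552 at 0 h, 573 at 0.5 h, 551 at 1 h, 501 at 2 h, 420.3 at 4 h and 535 at 6 h. It then read 455 at 8 h, 399 at 10 h, 531 and 510.3 at 12 h, 435 at 14 h, 476 at 16 h and 509 and 419 at 18 h. The last arrays read 557 at 20 h, 537 at 22 h, 485 and 543 at 24 h, 684 at 26 h, 521 at 28 h and 613 at 30 h, against 249.7 and 383 in unsynchronised cells. Both unsynchronised arrays were below every array of the course, by little for the brighter of them. The starved level was 532 ± 27.4, against 317 ± 94.6 in unsynchronised cells (mean ± SD, n = 2 each), a log2 difference of 0.78 ± 0.19 (adjusted p = 0.0081). Without unsynchronised replicate 1, the dimmer one, this difference was 0.47 and no longer called (adjusted p = 0.082). The fibroblast markers were higher in the same comparison (median log2 difference 0.56, against -0.01 over all genes), and their part in it was not tested. The 95% interval of the difference between 24 h and 0 h was -0.48 to 0.38 on the log2 scale. The highest array was that at 26 h, which stood apart over all genes.

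Il6, a cytokine that acts on leukocytes, liver and the fibroblasts themselves, had the largest change of the 10 genes. Its probe set (17435725) read 11.8 and 9.08 at 0 h, 11.5 at 0.5 h, 28.3 at 1 h, 46.4 at 2 h, 131 at 4 h and 201 at 6 h. Next it read 212 at 8 h, 148 at 10 h, 112 and 121 at 12 h, 74.9 at 14 h, 42.6 at 16 h and 48.1 and 57.6 at 18 h. From 20 h on Il6 read 94.6 at 20 h, 66.2 at 22 h, 92.0 and 83.0 at 24 h, 90.3 at 26 h, 92.0 at 28 h and 66.3 at 30 h, against 52.1 and 52.2 in unsynchronised cells. The 3 lowest arrays were those at 0 and 0.5 h, under the intensity of 20 used as the minimum, and every later array was above them. At 8 h Il6 was 20.5-fold higher than at 0 h (log2 difference 4.36 ± 0.19, adjusted p = 6.93e-07), with the 6 h array within 2 duplicate SDs of it. The size of this fold rests on a dim level, and with every intensity under 20 raised to 20 the difference of 6 and 8 h from 0 h was 3.37, against 4.32 without that floor. Between the top and 16 h the intensity went down to 42.6 and was 87.5 ± 6.38 at 24 h, against 10.4 ± 1.89 at 0 h (mean ± SD, n = 2 each).

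Lif, the leukaemia inhibitory factor that keeps mouse embryonic stem cells undifferentiated, gave a brief pulse. Its probe set (17246810) read 34.7 and 38.3 at 0 h, 58.9 at 0.5 h, 84.9 at 1 h, 269.7 at 2 h, 164 at 4 h and 96.5 at 6 h. It then read 69.6 at 8 h, 48.6 at 10 h, 52.9 and 43.4 at 12 h, 55.5 at 14 h, 34.0 at 16 h and 47.5 and 48.1 at 18 h. The last arrays read 56.0 at 20 h, 44.4 at 22 h, 47.5 and 50.7 at 24 h, 41.3 at 26 h, 38.2 at 28 h and 35.9 at 30 h, against 51.1 and 57.9 in unsynchronised cells. The 2 h array, which stood apart over all genes, was the highest by far. No other time lay within 2 duplicate SDs of it, and the 16 and 30 h arrays were back in or below the range of 0 h. Lif was 7.40-fold higher at 2 h than at 0 h (log2 difference 2.89 ± 0.18, adjusted p = 4.34e-06) and 1.91-fold higher at 8 h (adjusted p = 0.0032). It was not called at 10 h (adjusted p = 0.11), 12 h (0.060) or 18 h (0.062).

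Il11, which acts on stromal cells and on bone and platelet precursors, had its highest array at 10 h, with 8 h, where Il6 was highest, within 2 duplicate SDs of it. Its probe set (17485924) read 9.96 and 14.7 at 0 h, 11.7 at 0.5 h, 9.91 at 1 h, 57.8 at 2 h, 62.2 at 4 h and 71.5 at 6 h. It then read 92.9 at 8 h, 111 at 10 h, 49.3 and 79.7 at 12 h, 48.1 at 14 h, 31.8 at 16 h and 24.5 and 24.6 at 18 h. From 20 h on Il11 read 27.6 at 20 h, 22.9 at 22 h, 20.8 and 19.5 at 24 h, 18.9 at 26 h, 20.9 at 28 h and 17.1 at 30 h, against 27.2 and 23.1 in unsynchronised cells. The arrays from 0 to 1 h were below 20, those from 2 to 14 h were all above the unsynchronised ones, and from 24 h on the level was near 20 again. The first time called was 2 h (log2 difference 2.26 ± 0.28, adjusted p = 4.95e-04), and at 10 h Il11 was 9.17-fold higher than at 0 h (log2 difference 3.20 ± 0.28, adjusted p = 4.35e-05). With intensities under 20 raised to 20 the differences from 0 h were 2.03 for 6 and 8 h (adjusted p = 8.27e-04), 0.29 for 18 h and 0.03 for 24 h, and the calls at 18 and 24 h were lost (adjusted p = 0.34 and 0.96).

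Socs3, the feedback inhibitor of this receptor family, rose at 2 h and remained up. Its probe set (17272619) read 23.2 and 26.2 at 0 h, 32.3 at 0.5 h, 35.7 at 1 h, 95.9 at 2 h, 69.3 at 4 h and 71.3 at 6 h. Next came readings of 71.3 at 8 h, 64.1 at 10 h, 67.8 and 61.8 at 12 h, 43.6 at 14 h, 74.0 at 16 h and 84.3 and 53.0 at 18 h. The last arrays read 92.0 at 20 h, 90.3 at 22 h, 62.4 and 64.6 at 24 h, 126 at 26 h, 69.3 at 28 h and 77.5 at 30 h, against 39.4 and 46.4 in unsynchronised cells. Every array from 0.5 h on was above both at 0 h, and the 2 arrays at 18 h differed more than those of any other duplicated time. Socs3 was 3.88-fold higher at 2 h than at 0 h (log2 difference 1.96 ± 0.24, adjusted p = 4.74e-04), and the 26 h array, which stood apart over all genes, was 5.09-fold higher (adjusted p = 1.28e-04), with 2 and 20 h within 2 duplicate SDs of it. Without the 26 h array, 2 h would be the highest time, and that array stood apart as well. A further probe set of Socs3 (17547600) never reached 20.

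Csf1, the growth factor on which macrophages depend for survival, rose in one smooth wave. Its probe set (17409075) read 554 and 490.4 at 0 h, 546 at 0.5 h, 745 at 1 h, 1325 at 2 h, 1433 at 4 h and 1359.8 at 6 h. Next came readings of 1253 at 8 h, 1163 at 10 h, 940.5 and 1031 at 12 h, 1000.4 at 14 h, 829 at 16 h and 936 and 884 at 18 h. Toward the end Csf1 read 872 at 20 h, 794 at 22 h, 698 and 740.2 at 24 h, 659 at 26 h, 651 at 28 h and 691 at 30 h, against 927 and 1002 in unsynchronised cells. The 0.5 h array lay between the 2 at 0 h and all others lay above them. At 4 h Csf1 was 2.75-fold higher than at 0 h (log2 difference 1.46 ± 0.16, adjusted p = 1.12e-04), with 2 and 6 h within 2 duplicate SDs of that array, which stood apart over all genes, and the last time called was 24 h, at 719 ± 30.2 against 522 ± 45.2 at 0 h (mean ± SD, n = 2 each).

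**Figure D2:**
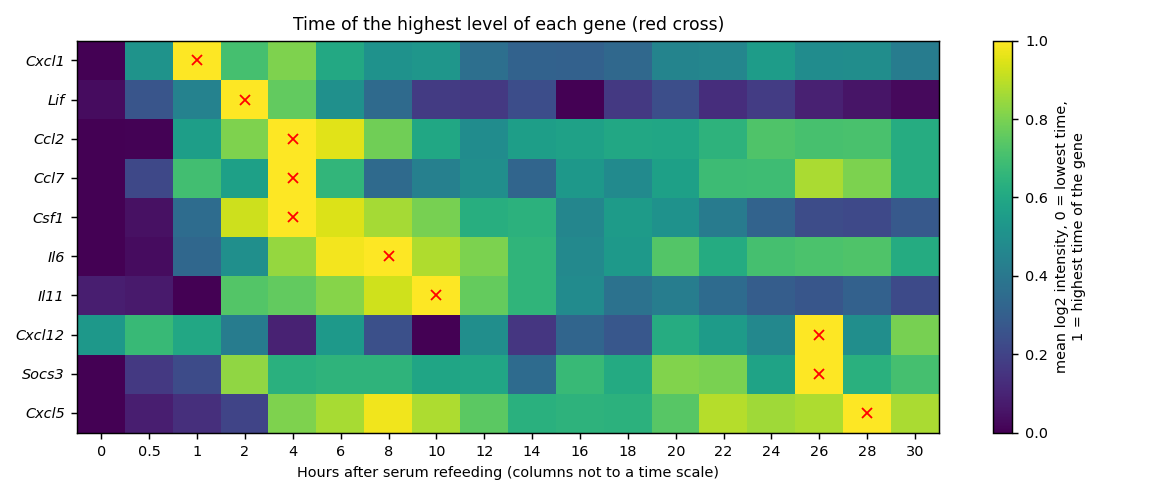
Mean log2 intensity of each gene (rows) at the 18 times of the course (columns, hours after refeeding), scaled from 0 at the lowest time of the gene to 1 at its highest, which a red cross marks. The crosses move from 1 h for Cxcl1 through 2 h for Lif, 4 h for Ccl2, Ccl7 and Csf1 and 8 and 10 h for Il6 and Il11 to 26 and 28 h for Cxcl12, Socs3 and Cxcl5.

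The comparison of windows with starved cells asked how many of the genes were up in each stretch of the course. All 6 share the same 2 arrays at 0 h. In the first window (0.5 and 1 h) 3 of the 10 were higher and none lower, against 1.01% and 0.0706% of all genes. These were Cxcl1 (log2 difference 2.25 ± 0.17, adjusted p = 3.61e-05), Lif (0.96 ± 0.14, 0.0070) and Il6 (0.80 ± 0.16, 0.039), of which Il6 had overlapping arrays. The call of Il6 was lost with the floor of 20 (adjusted p = 0.48) and with any array of the unsynchronised, 12, 18 or 24 h groups left out (0.060 to 0.084), which lowers the degrees of freedom. Without 0 h replicate 1, Ccl2 (0.92, adjusted p = 0.014) and Ccl7 (0.93, 0.041) were called too.

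At 2 and 4 h, 9 of the 10 were higher and none lower (11.5% and 18.9% of all genes), and the median log2 difference was 1.67, against -0.10 over all genes. The gene left out was Cxcl12. With 2 h alone 8 were higher, as Cxcl5 was not called (adjusted p = 0.14), and with 4 h alone 9 were. Il6 (2.92 ± 0.16), Lif (2.53 ± 0.14), Il11 (2.31 ± 0.23) and Cxcl1 (2.25 ± 0.17) changed most. The 0 h intensities of Il6 and Il11 were under the minimum, so this order rests on dim levels. With lower intensities raised to the minimum, the differences were 1.97 for Il6 and 1.58 for Il11. Lif and Cxcl1 then led, and Il11 lay below Socs3 (1.72) and Ccl2 (1.61). At 6 and 8 h 9 were again higher, all but Cxcl12, and none was lower (17.8% and 17.6% of all genes), with a median of 1.54, against 0.02 over all genes. Il6 had the largest difference there (4.32 ± 0.16, adjusted p = 7.35e-08) and Ccl7 the smallest of those called (0.70 ± 0.19, 0.016). Without 0 h replicate 2, Ccl7 was not called at 6 and 8 h, 12 h or 18 h (adjusted p = 0.081, 0.092 and 0.11).

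At 12 h 8 genes, all but Lif and Cxcl12, were higher and none lower (18.9% and 11.8% of all genes, median 1.00 against 0.08), and at 18 h 8 were higher, again all but Lif and Cxcl12, and none lower (15.7% and 14.7%, median 1.01 against -0.0025). The 12 h call of Ccl2 (0.87 ± 0.22, adjusted p = 0.013) was lost without either 12 h array (0.061 and 0.069). That of Ccl7 (0.69 ± 0.19, 0.019) was lost without 12 h replicate 1 (0.13), and its 18 h call without either 18 h array (0.063 and 0.13). At 24 h 9 genes were higher and none lower (14.5% and 12.0% of all genes, median 1.13 against 0.02), again all but Cxcl12. The calls of Lif (0.43 ± 0.14, 0.049), Il11 (0.74 ± 0.23, 0.037) and Csf1 (0.46 ± 0.13, 0.025) were the weakest, and each was lost without either 24 h array (adjusted p = 0.072 to 0.17). Lif and Il11 also lost the call without 0 h replicate 1 (0.15 and 0.21) or either array of the unsynchronised and 18 h groups (0.051 to 0.076), and Csf1 without 0 h replicate 2 (0.072).

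**Figure D3:**
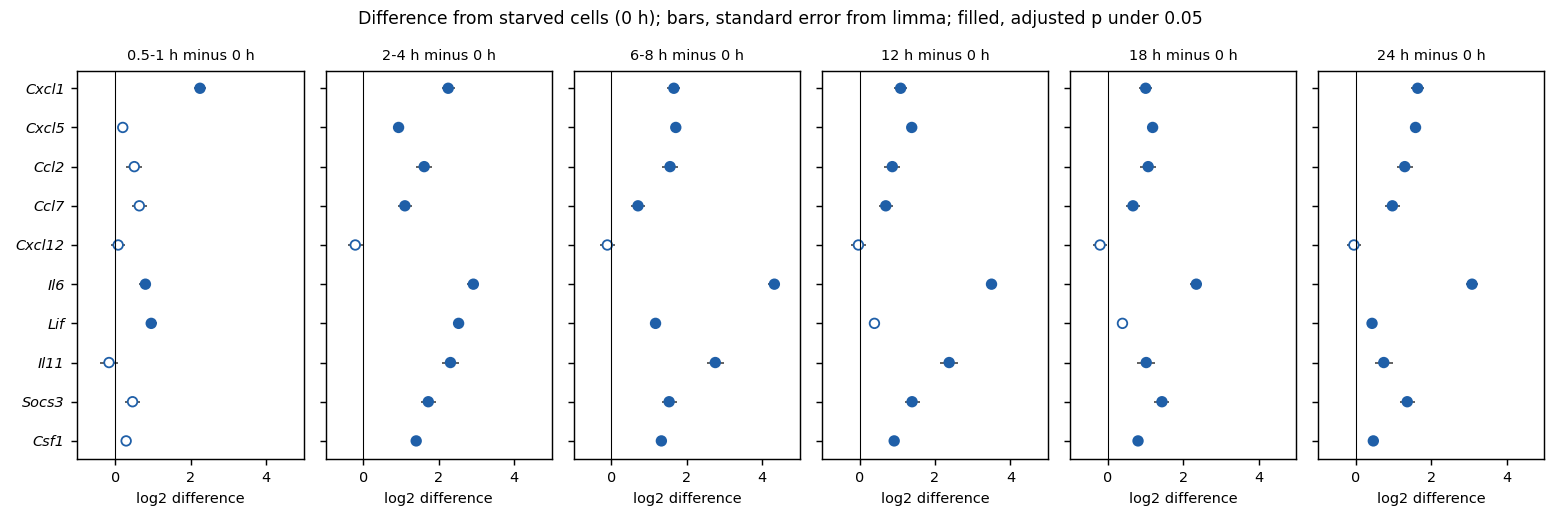
Log2 difference of each gene from starved cells (0 h) in 6 windows, from left to right 0.5 and 1 h, 2 and 4 h, 6 and 8 h, 12 h, 18 h and 24 h, with the standard error from limma as bars and filled points for an adjusted p under 0.05. Il6 moves farthest to the right at 6 and 8 h (4.32), Lif returns towards 0 after 4 h and Cxcl12 lies between -0.21 and 0.08.

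Whether the early level was kept was asked by setting 12 h against the mean of 2 and 4 h. Both the 2 h and the 4 h array stood apart over all genes. Here 4 genes were lower and 2 higher (9.25% and 23.6% of all genes), and the median log2 difference was -0.37, against 0.14 over all genes. Lif fell most, with a log2 difference of -2.13 ± 0.14 (adjusted p = 1.28e-05), then Cxcl1 (-1.16 ± 0.17, 7.72e-04), Ccl2 (-0.75 ± 0.22, 0.023) and Csf1 (-0.48 ± 0.13, 0.017). Il6 (0.58 ± 0.16, 0.018) and Cxcl5 (0.45 ± 0.12, 0.019) were higher, but these calls rested on the 2 h array, since against 4 h alone the differences were -0.17 and -0.11 (adjusted p = 0.55 and 0.64). With 12 h replicate 1 left out, only Lif and Cxcl1 were called, and without replicate 2 Csf1 was called as well. Against 2 h alone Ccl2 and Csf1 were not called (adjusted p = 0.13 and 0.070). With renewed quantile normalisation Il6 was not called (adjusted p = 0.058). The 0 h arrays are no part of this comparison, and leaving 1 out changed only the pooled spread and its degrees of freedom. Ccl7, Il11, Socs3 and Cxcl12 gave no call, although Ccl7 was called lower against 4 h alone (-0.71, 0.047) and without either 0 h array (-0.41, 0.043).

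Starved cells were set against unsynchronised growing cells to ask what 48 h of low serum did. At 0 h 8 of the 10 genes were lower and 1 higher (21.7% and 21.0% of all genes), and the median log2 difference was -0.72, against -0.01 over all genes. Il6 averaged 10.4 ± 1.89 in starved cells and 52.1 ± 0.070 in unsynchronised cells (SD, n = 2 each), a log2 difference of -2.33 ± 0.16 (adjusted p = 3.24e-06). Cxcl1 averaged 35.2 ± 5.84 in starved cells and 77.2 ± 11.1 in unsynchronised cells (-1.14 ± 0.17, 4.90e-04), and Csf1 averaged 522 ± 45.2 in starved cells and 965 ± 53.2 in unsynchronised cells (-0.89 ± 0.13, 4.29e-04). Il11 (-1.05 ± 0.23), Socs3 (-0.79 ± 0.20), Ccl2 (-0.65 ± 0.22), Cxcl5 (-0.61 ± 0.12) and Lif (-0.58 ± 0.14) were lower as well, Cxcl12 was higher, and Ccl7, whose arrays overlapped, was not called (-0.26 ± 0.19, adjusted p = 0.29). The call of Ccl2 (adjusted p = 0.032) was lost without either unsynchronised array (0.080 and 0.15) or 0 h replicate 2 (0.19). Those of Lif and Socs3 were lost without unsynchronised replicate 2 (0.071 and 0.070), and that of Il11 with the floor of 20 (difference -0.33, 0.25). Without 0 h replicate 1, Ccl7 was called lower (-0.55, 0.031).

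At 24 h the refed cells differed from unsynchronised cells in 2 of the 10 genes, both higher and none lower (3.01% and 1.56% of all genes). Cxcl5 averaged 998 ± 8.18 at 24 h and 510.3 ± 7.45 in unsynchronised cells (SD, n = 2 each), a log2 difference of 0.97 ± 0.12 (adjusted p = 0.0027). Il6 averaged 87.5 ± 6.38 at 24 h and 52.1 ± 0.070 in unsynchronised cells (0.75 ± 0.16, 0.024), and this call was lost without any of the 4 arrays compared (0.082 to 0.15). The other 8 missed the threshold, among them Cxcl12 (0.73 ± 0.19, 0.063), Ccl7 (0.70 ± 0.19, 0.068), Csf1 (-0.42 ± 0.13, 0.10), Ccl2 (0.64 ± 0.22, 0.13), Cxcl1 (0.50 ± 0.17, 0.14) and Socs3 (0.57 ± 0.20, 0.14). Ccl2, Ccl7 and Cxcl12 passed it without either 0 h array (Ccl2 0.011, Ccl7 0.016, Cxcl12 0.047), and Cxcl12 also without unsynchronised replicate 2 (0.034). The 0 h arrays are no part of this comparison. Leaving 1 of them out changed none of the differences, only the pooled spread and its degrees of freedom. For Lif the difference was -0.15 ± 0.14 with a 95% interval of -0.47 to 0.17.

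**Figure D4:**
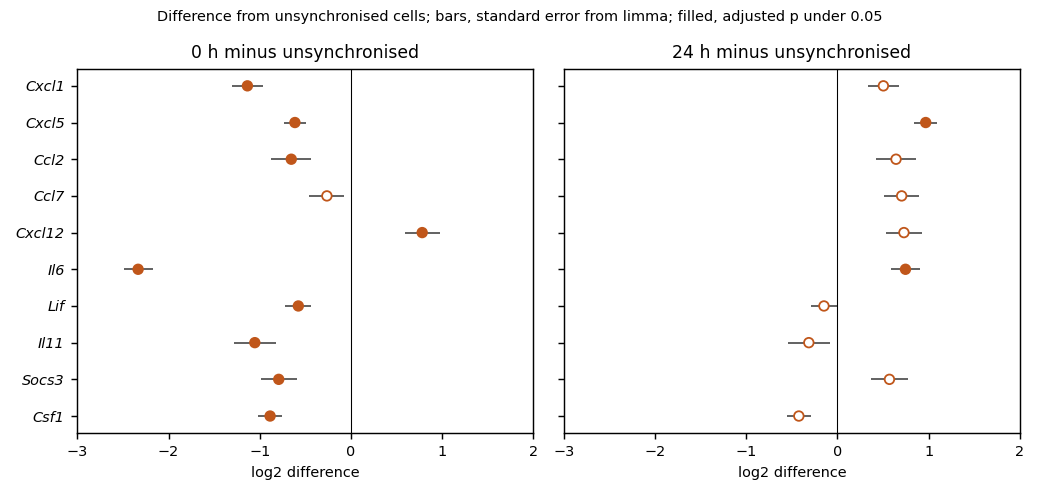
Log2 difference of each gene from unsynchronised cells, for starved cells at 0 h (left) and refed cells at 24 h (right), with the standard error from limma as bars and filled points for an adjusted p under 0.05. On the left 8 genes lie below 0 with filled points and Cxcl12 above it, and on the right only Cxcl5 and Il6 are filled.

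Most of the genes listed as receptors of these factors or of related ones did not pass the minimum in MEF. Of 19 listed receptors 17 were on the array with a single gene and 7 passed the minimum, among them the shared chain Il6st and the oncostatin receptor chain Osmr, with maxima of 1522 and 1370. Il6st was lower than at 0 h at 6 and 8 h (-0.54 ± 0.14, 0.015) and at 12 h (-0.48 ± 0.14, 0.029). Osmr was higher at 6 and 8 h (0.48 ± 0.12, 0.012) and at 24 h (0.41 ± 0.12, 0.030). Ccr2, the receptor of Ccl2 and Ccl7, and Cxcr2, that of Cxcl1 and Cxcl5, did not pass it. Il6ra, the receptor chain specific to Il6, had 224 at 2 h, against 75.7 on average at 0 h, and rose at 2 and 4 h (log2 difference 1.12 ± 0.15, adjusted p = 4.79e-04). Both of these arrays stood apart over all genes. Lifr, the chain that binds Lif, fell by 0.55 on the log2 scale at 12 h (adjusted p = 0.0065) and by 0.68 at 18 h (0.0019). Cxcr4, the receptor of Cxcl12, stayed under 38 and was higher at 2 and 4 h (0.60 ± 0.19, 0.032) and lower at 24 h (-0.65 ± 0.19, 0.026). Csf1r, the receptor of Csf1 and itself a macrophage marker, averaged 32.0 at 24 h and 47.4 at 0 h (-0.56 ± 0.14, 0.016). Of the 7 receptors 2 were higher and none lower at 2 and 4 h (11.5% and 18.9% of all genes), and 1 was higher and 2 lower at 24 h (14.5% and 12.0%). Between these, 1 was higher and 1 lower at 6 and 8 h (17.8% and 17.6%). None was higher and 2 were lower at 12 h (18.9% and 11.8%), and none was higher and 1 lower at 18 h (15.7% and 14.7%). The 0 h level itself differed from growing cells. In starved cells 3 of the 7 were higher than in unsynchronised cells and none lower (21.0% and 21.7% of all genes). These were Lifr (0.77 ± 0.12, 5.88e-04), Il6ra (0.51 ± 0.15, 0.021) and Il6st (0.50 ± 0.14, 0.018).

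Of the JAK kinases, STAT factors and their inhibitors 17 of 21 were tested, with 6 higher and 3 lower than at 0 h in the 2 and 4 h window (11.5% and 18.9% of all genes) and also in that of 6 and 8 h (17.8% and 17.6%). At 12 h 3 were higher and 1 lower (18.9% and 11.8%), at 18 h 1 and 1 (15.7% and 14.7%) and at 24 h 2 and 1 (14.5% and 12.0%). The lower counts up to 8 h were near the share of all genes, and both counts at 12, 18 and 24 h were no greater than it. By the F test over times 4 of the 17 changed, against 43.8% of all genes. Socs2, an inhibitor best known for growth hormone signalling, had 94.1 at 6 h and 131 at 8 h, against an average of 13.7 at 0 h, a log2 difference of 3.02 ± 0.22 (adjusted p = 4.70e-06). Socs5 was higher too (1.26 ± 0.15, 1.23e-04), as was the transcription factor Stat5a (0.56 ± 0.14, 0.0091). Stat2, which transmits type I interferon signals, had 114 at 2 h and 43.4 at 4 h, in arrays that both stood apart. Against an average of 229.7 at 0 h it was lower at 2 and 4 h (-1.70 ± 0.25, 7.37e-04). Unsynchronised cells averaged 51.8 for Stat2, so starved cells were themselves higher than these (2.14 ± 0.25, 9.30e-05). The median of the list at 6 and 8 h was 0.22, against 0.02 over all genes.

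Genes known to respond to STAT3 or C/EBP factors numbered 11 tested of 12, and 3 were higher in the first window (1.01% of all genes), 8 higher and 1 lower at 2 and 4 h (11.5% and 18.9%), 7 higher at 6 and 8 h (17.8%) and 7 at 24 h (14.5%). The list median at 2 and 4 h was 1.37, against -0.10 over all genes. The transcription factor Junb had 797 at 1 h, against an average of 123 at 0 h, and was higher in the first window (2.46 ± 0.18, 2.82e-05). The kinase Pim1 peaked with Lif in the 2 h array, which stood apart over all genes. There it had 569.5, against an average of 68.1 at 0 h (1.79 ± 0.20 for 2 and 4 h, 1.39e-04). Timp1, an inhibitor of matrix proteases, was higher in all windows from 2 and 4 h on, by 2.22 ± 0.12 at 12 h (1.47e-06). Steap4, a metalloreductase, was higher in 1 of the 6 windows, that of 24 h (1.04 ± 0.24, 0.010) and lower at 2 and 4 h (-0.71 ± 0.24, 0.049).

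Other chemokines numbered 15 tested of 31, and 5 were higher at 2 and 4 h (11.5% of all genes), 7 higher and 1 lower at 6 and 8 h (17.8% and 17.6%), 9 higher and 1 lower at 12 h (18.9% and 11.8%) and 6 higher and 1 lower at 24 h (14.5% and 12.0%). Cxcl2, a close relative of Cxcl1, was very dim but reached 20.1 at 1 h and 20.8 at 4 h, against an average of 5.52 at 0 h. Cxcl16, a membrane-bound chemokine, was higher at 6 and 8 h (2.13 ± 0.18, 1.29e-05). Cxcl14 averaged 723 at 12 h and 139.9 at 0 h (2.37 ± 0.20, 1.79e-05). Cxcl15 ran the other way, with an average of 18.4 at 24 h and 114 at 0 h (-2.62 ± 0.21, 2.28e-05).

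Other cytokines numbered 11 tested of 22, with 5 higher and 1 lower at 2 and 4 h (11.5% and 18.9% of all genes), 7 higher and 2 lower both at 6 and 8 h (17.8% and 17.6%) and at 12 h (18.9% and 11.8%), and 3 higher and 2 lower at 24 h (14.5% and 12.0%). The lower counts from 6 h on were near those shares. Csf2, the growth factor of granulocytes and macrophages, reached 151 in the single 4 h array, which stood apart over all genes, against an average of 4.01 at 0 h and 21.4 and 21.3 at 2 and 6 h. Il1a, an inflammatory cytokine, had 52.8 and 60.2 at 4 and 6 h, against an average of 4.20 at 0 h (3.32 ± 0.19 for 6 and 8 h, 1.10e-06). Tslp, a cytokine of barrier tissues, had its top at 8 h as Il6 did, with 59.1, against an average of 7.01 at 0 h (3.05 ± 0.23, 7.61e-06). Il33, an alarmin kept in the nucleus, averaged 10.8 at 24 h and 51.9 at 0 h, a log2 difference of -2.24 ± 0.24 (9.91e-05), and 8.45 in unsynchronised cells. The values at 0 h of Cxcl2, Csf2, Il1a, Tslp and Socs2 were below 20, so the sizes of their differences rest on dim levels. So do those of Cxcl15 and Il33, which averaged under 20 at 24 h. A gene under 20 at 0 h could pass the minimum only through arrays where it was higher. The filter thus favours higher calls among the genes tested in these lists, and its part in the counts was not tested.

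**Figure D5:**
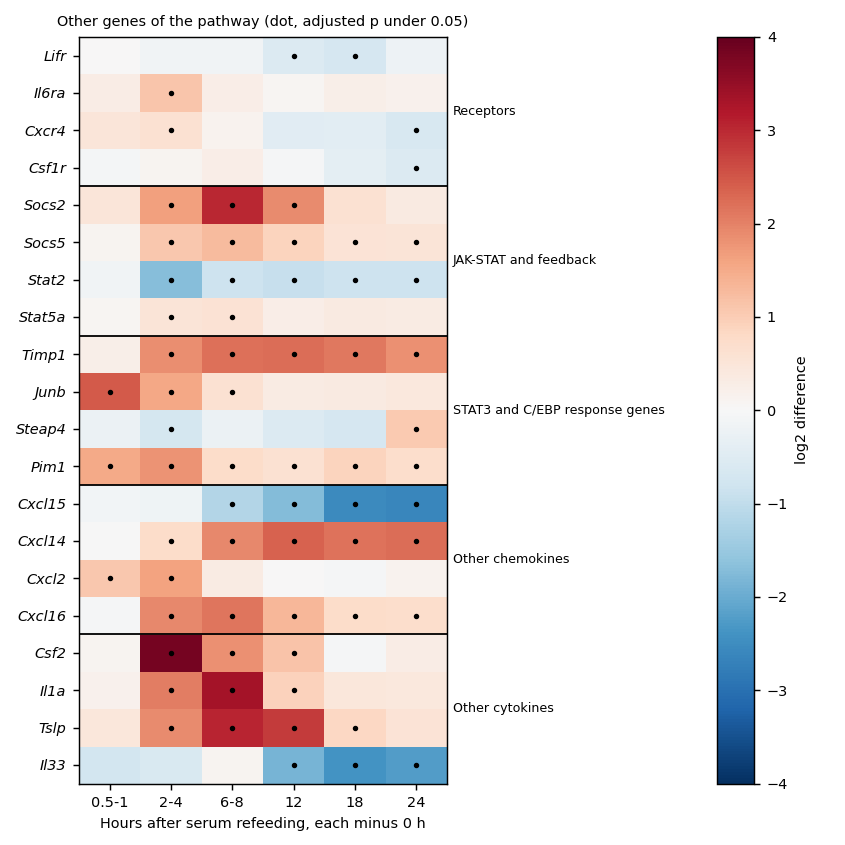
Log2 difference from 0 h (colour, red higher and blue lower) of the 4 genes with the lowest F test p in each of 5 lists (rows), in 6 windows of hours after refeeding (columns), with a dot for an adjusted p under 0.05. Red is deepest for Csf2 at 2 and 4 h (3.82), Il1a at 6 and 8 h (3.32) and Tslp at 6 and 8 h (3.05), and Cxcl15 and Il33 turn blue from 12 h on.

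Likeness between courses was described by Pearson's r of the log2 group means over the 19 groups, which come from the same arrays and normalization, and carries no test. Among the 10 genes the most alike were Il11 and Csf1 (r = 0.88), Cxcl5 and Il6 (0.86), Ccl2 and Il6 (0.82) and the neighbours Ccl2 and Ccl7 (0.78), and the least alike were Cxcl12 and Csf1 (-0.51). Outside the 10, the genes nearest to Cxcl1 were Nfkbia (r = 0.91), Nfkbiz (0.85) and Ptgs2 (0.82). Those nearest to Lif were Relb (r = 0.94), Ppp1r13l (0.94) and Bcl10 (0.94), and to Socs3 Bcl3 (r = 0.85), Lgals3 (0.83) and Litaf (0.81). Il6 lay nearest to Slc25a37 (r = 0.96), Ugdh (0.93) and Uhrf1bp1l (0.92), and Cxcl5 to Slc39a14 (r = 0.96), H2-Q10 (0.94) and C1galt1 (0.91). Csf1 followed Inhba (r = 0.98), Pvr (0.96) and Plaur (0.96) most closely, and Il11 followed Serpinb2 (r = 0.96), Cgref1 (0.94) and Mustn1 (0.94). For Ccl2 the list was Gch1 (r = 0.92), Gfpt2 (0.89) and Olr1 (0.89), for Ccl7 Plat (r = 0.81), Rgcc (0.80) and Map3k8 (0.77) and for Cxcl12 P2rx4 (r = 0.83), Uap1l1 (0.81) and Rin2 (0.80).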

How the data were processed

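RNA of mouse embryonic fibroblasts was labelled and hybridised to Affymetrix Mouse Gene 2.0 ST arrays, 24 in 19 groups. The authors checked the arrays with ArrayQualityMetrics and normalised them together by RMA in the oligo package (versions: not given in the sources used here), and deposited linear signal intensities of 1.74 to 6335, although the header names log2. Both deposited tables held the same values (largest difference 0). RMA makes arrays alike in distribution, so all values are relative to the other genes of an array. Here log2 of the intensity was taken, and probe sets with exactly 1 gene symbol (23521 of 41345, with 1820 naming several and 16004 none) that reached 20 in at least 2 arrays were kept (10263), with the brightest per gene (9908 genes).

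A mean for each group was fitted over all 24 arrays by limma (3.58.1, R 4.3.3), and two-sided tests, with 5 residual degrees of freedom plus 5.58 from the prior, were adjusted by Benjamini-Hochberg over 9908 genes at 0.05. A percentage of all genes is the share called in that comparison. The fit was tested on simulated data. The genes, lists and comparisons were chosen with earlier results of these data known. All 10 genes were named, and from each pathway list the 4 with the lowest F test p. Promoter letters came from RefSeq (GRCm38.p6). The number of arrays limits the precision. The deviations of duplicates with the same number correlated between groups with both signs (r of -0.37 to 0.22, over 0.1 in 3 of 10 pairs). Python 3.11.15, pandas 2.3.3, numpy 2.4.6 and matplotlib 3.10.9 were used.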

Additional observations from a re-analysis of the deposited data

How the results depend on the processing

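Counts are of the 10 genes called in a comparison. Asking for at least a 2-fold difference as well left 1 gene (of 3) at 0.5 and 1 h, 5 (of 8) at 12 h and 5 (of 9) at 24 h, each against 0 h, 2 (of 6) for 12 h against 2 and 4 h, 3 (of 9) for 0 h against unsynchronised cells and 0 (of 2) for 24 h against unsynchronised cells. Over all 9908 genes it left, in the same order, 79 (of 107), 837 (of 3038), 819 (of 2623), 776 (of 3255), 1320 (of 4230) and 136 (of 453). A fit of only the groups compared called 1 gene at 0.5 and 1 h and 8 at 6 and 8 h (without Ccl7). It called 6 at 12 h (without Ccl2 and Ccl7) and 7 at 18 h (without Ccl7). At 24 h against 0 h it called 6 (without Lif, Il11 and Csf1). Against unsynchronised cells it called 8 for 0 h (without Ccl2) and 4 for 24 h (Ccl2 and Ccl7 added). Over all genes it called, in the same order, 44, 1431, 1814, 1943, 1436, 3088 and 410. For 24 h against unsynchronised cells, a variance trend with robust moderation called 5, and 529 over all genes. Ccl7 and Cxcl12 were added as higher and Csf1 as lower (-0.42, adjusted p = 0.044). At 0.5 h alone 1 gene, Cxcl1, was called. With intensities under 20 raised to 20, the F test called 7, without Ccl2 and Ccl7 (adjusted p = 0.056 and 0.092). The lowest arrays of Ccl2 and Ccl7 read 578 and 511, so the floor changed none of their values. It acted on them only through the prior and the adjustment, which are taken over all genes. Over all genes the F test then called 3397, against 4336 without that floor.

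With 1 array left out, the counts were 2 to 5 at 0.5 and 1 h, 9 at 2 and 4 h, 8 to 9 at 6 and 8 h, 6 to 8 at 12 h, 7 to 8 at 18 h and 6 to 9 at 24 h against 0 h. They were 2 to 7 for 12 h against 2 and 4 h, 6 to 10 for 0 h against unsynchronised cells, 1 to 5 for 24 h against unsynchronised cells and 8 to 9 for the F test. For 24 h against unsynchronised cells the count was 1 without unsynchronised replicate 1 or either 24 h array and 5 without either 0 h array.

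With the replicate block, 2 genes were called at 0.5 and 1 h (without Il6, adjusted p = 0.072), 8 at 24 h against 0 h (without Lif, 0.068) and 8 by the F test (without Ccl7, 0.051), and the block changed no other call. Over all genes these counts were 98, 2469 and 3841, against 107, 2623 and 4336 without the block. Whether arrays with the same number were paired cannot be told from their deviations, which correlated between groups with both signs (r of -0.37 to 0.22).

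The sign turned in 10 cases. Against 0 h, Cxcl12 at 12 h was 0.020 with centring on the array median, and with 1 array left out it ran from -0.084 to 0.021 (without 0 h replicate 2). At 24 h it ran from -0.13 to 0.028 (without 24 h replicate 1), and at 6 h alone it was 0.0067. Il11 at 0.5 and 1 h ran from -0.44 to 0.11 (without 0 h replicate 2), and at 12 h against 2 and 4 h it was -0.088 with renewed quantile normalisation and ran from -0.28 (without 12 h replicate 2) to 0.41. Ccl7 at 0 h against unsynchronised cells ran from -0.55 (without 0 h replicate 1) to 0.022 (without 0 h replicate 2). Of these only the -0.55 of Ccl7 was called (adjusted p = 0.031). Against 4 h alone, Cxcl5 at 12 h was -0.11 and Il6 -0.17, neither called. For single genes, 946 of 1010 values under the other settings and 927 of 1000 with 1 array left out kept their sign and their side of the threshold. Few arrays limit all calls, and a level under 20 limits the folds of Il6 and Il11 at 0 h.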
